A study of Homo sapiens with 4 samples.

Results

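The cytosolic HSP70 and HSP90 chaperones and their partners were followed in HaCaT, a line of human keratinocytes that became immortal in culture, through 10 genes chosen by name from the 29209 genes listed. They were the HSP70 gene HSPA8, the HSP110 genes HSPA4 and HSPH1, the HSP90 genes HSP90AA1 and HSP90AB1, the J-domain genes DNAJB1 and DNAJA1, the co-chaperone genes STIP1 and BAG3, and the small heat shock protein gene HSPB1, against which the other 9 were set. All 10 were listed in each of the 4 libraries and all passed the filter on low counts.

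The libraries came from HaCaT cells made by lentivirus into a stable line that overexpresses TCN1 (TCN1_OE, 2 libraries) and from HaCaT cells of a negative control line (NC, 2 libraries). Per the labels' protocols, both lines grew in the same serum-containing medium, and medium was removed for RNA after 48 hours. TCN1 encodes transcobalamin 1, a secreted protein that binds vitamin B12. The labels do not state the promoter of the vector, the content of the control virus or whether a line is 1 clone. No label ties the 2 libraries of a line to separate cultures, so a p-value rests on library spread that may be technical.

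Library totals were 16586500 and 14756073 counts in TCN1_OE and 19973550 and 11593377 counts in NC. TCN1 itself was at 68.3 and 56.6 FPKM in TCN1_OE and at 1.67 and 0.978 FPKM in NC, where FPKM is fragments scaled to gene length and library depth. All 6 keratinocyte markers reached 1 FPKM in every library, and their summed FPKM was 6740 and 7541 in TCN1_OE and 6304 and 6878 in NC. Within that list the suprabasal keratins were higher in TCN1_OE: KRT1 stood at 376 and 394 FPKM in TCN1_OE against 223 and 229 FPKM in NC (log2 fold change 0.77 ± 0.08, edgeR adjusted p 0.0071), and KRT10 at 245 and 244 FPKM in TCN1_OE against 137 and 134 FPKM in NC (0.84 ± 0.08, edgeR adjusted p 0.0038). The other 4 markers, KRT5, KRT14, TP63 and SFN, did not pass, with log2 fold changes of 0.13, 0.04, 0.0033 and -0.02. The part of this keratin difference in the results on HSPA8 and HSPB1, which run along the same groups, was not tested. Of the marker lists of other skin cells, 3 of 6 fibroblast, 4 of 5 melanocyte, 2 of 4 endothelial and 5 of 5 immune genes were listed, and each list summed to between 0.877 and 3.05 FPKM in every library. Mitochondrially encoded genes took 5.84 ± 0.27% of the counts in TCN1_OE and 5.23 ± 0.14% in NC (SD, n = 2 each), a difference that runs along the same groups as every comparison here; its part in the results was not tested.

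HSP70 proteins bind exposed hydrophobic stretches of unfolded clients and release them in a cycle driven by ATP. J-domain proteins deliver clients and speed ATP hydrolysis, while HSP110 proteins and BAG-domain proteins exchange the nucleotide and so free the client. STIP1, also called HOP, holds HSP70 and HSP90 together so that clients can pass to HSP90, which matures kinases, steroid receptors and other signalling proteins. HSPB1, also called HSP27, works without ATP, holding unfolded proteins in large oligomers, and in human epidermis it is known from the suprabasal layers. Many of these genes are induced on heat or proteotoxic stress by the heat shock factor HSF1, which binds repeats of GAA in alternating orientation, called heat shock elements.

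The heat shock elements themselves are shown first, because the genes differ in whether they carry one near an annotated start. Each line is a site of at most 30 bases from the 250 bases before a RefSeq transcript start on GRCh38.p14, 5′ to 3′ on the gene's strand, and the capitals mark matches to GAANNTTC or TTCNNGAA, an element of 2 units, or overlapping matches. All 10 genes were in the RefSeq promoter table, some with several starts, and the sites of HSPA8 and HSP90AA1 lie within exons of longer GENCODE 29 transcripts. Those of HSP90AB1 and DNAJB1 lie inside the GENCODE 29 bounds of these genes but outside their exons, before an inner annotated start. The other starts of HSP90AB1, HSP90AA1 and DNAJB1 held no such element. A match is a description of letters and not evidence of binding.
HSPA8 (chr11:123062346-123062374, minus strand): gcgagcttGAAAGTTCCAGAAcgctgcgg
HSPA8 (chr11:123062171-123062199, minus strand): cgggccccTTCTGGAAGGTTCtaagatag
HSP90AA1 (chr14:102087112-102087140, minus strand): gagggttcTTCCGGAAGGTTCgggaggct
HSP90AB1 (chr6:44247770-44247798, plus strand): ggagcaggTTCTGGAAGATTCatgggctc
HSP90AB1 (chr6:44247823-44247851, plus strand): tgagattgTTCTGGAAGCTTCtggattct
DNAJB1 (chr19:14518457-14518484, minus strand): gggcggggcgGAAGGTTCtggagggggc
DNAJB1 (chr19:14518427-14518454, minus strand): gcgggctctgGAAGCTTCcgccggacgg
DNAJA1 (chr9:33025065-33025092, plus strand): aagggctccaGAAGATTCcacgagcgcc
HSPB1 (chr7:76302481-76302508, plus strand): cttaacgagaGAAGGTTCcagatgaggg

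Over all annotated starts, 6 of the 10 genes held a 2-unit element in the 250 bases before at least 1 start, against 13.96% of the 27305 genes in the promoter table. Both strands are covered, since each of these 2 patterns is its own reverse complement. The 3-unit element, in which a further GAA or TTC unit follows after 2 bases of any kind, was held by 3 genes, HSPA8, HSP90AA1 and HSP90AB1, against 0.557% of all genes, and every 3-unit match contains 2 overlapping 2-unit matches. HSPA8 carried 2 such elements, at -230 to -218 and at -55 to -43 relative to the start. HSP90AB1 also carried 2, at -165 to -153 and -112 to -100, and HSP90AA1 carried 1, at -88 to -76. HSP90AA1 also had a separate 2-unit element at -68 to -61, which is not printed because it lies beside the site shown. DNAJB1 had 2 separate 2-unit elements, DNAJA1 1 and HSPB1 1. HSPA4, HSPH1, STIP1 and BAG3 had none of these letters in the windows searched. TATAAA was found before a start of 1 gene, STIP1, against 13.0% of all genes, and CCAAT before a start of 4 genes, against 37.0%, each searched on both strands.

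**Figure D1:**
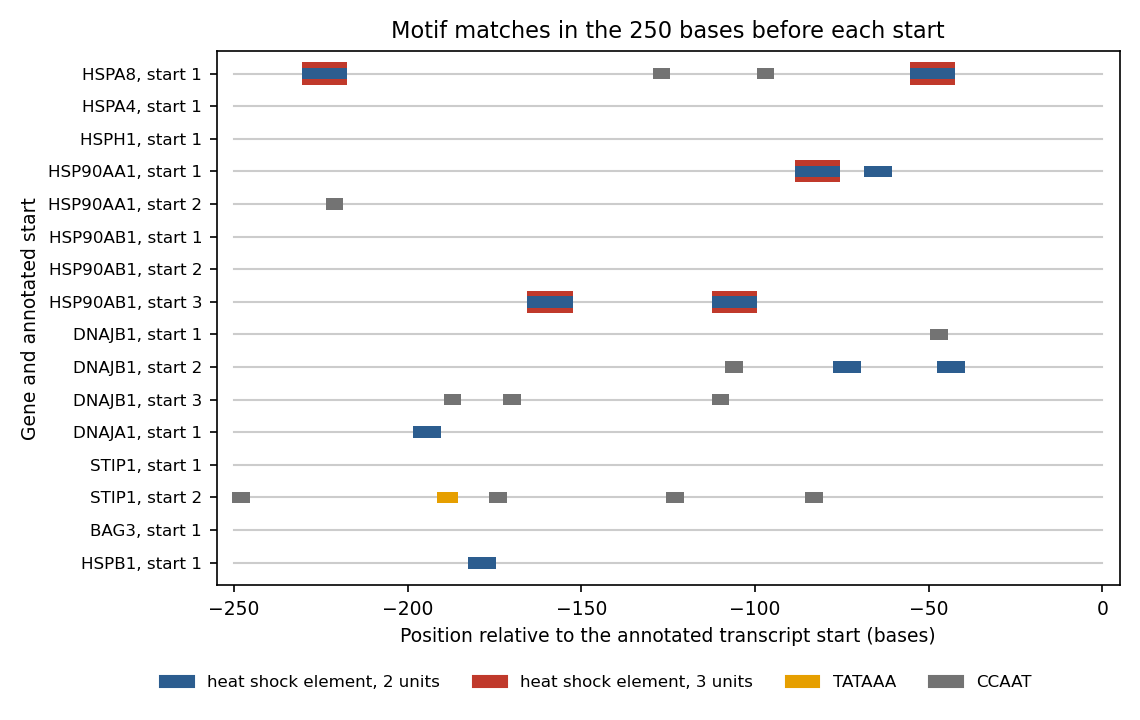
Positions of motif matches in the 250 bases before each annotated start of the 10 genes, with bases before the start on the x axis and 1 row per annotated start. Tall red boxes are 3-unit and blue boxes 2-unit heat shock elements; the 3-unit elements lie before HSPA8, HSP90AA1 and HSP90AB1.

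In the TCN1_OE libraries HSPA8 fell, and the other 8 chaperone and co-chaperone genes besides HSPB1 had negative fold changes that did not pass the test, while HSPB1 had a positive one that did not pass either. Differences were tested with edgeR's quasi-likelihood test on the counts over all 15113 genes kept, and a gene is called where its Benjamini-Hochberg adjusted p is under 0.05. Of these 10 genes, 1 was called lower, where 0.212% of all genes tested were, and 0 were called higher, where 0.285% of all genes were. At an unadjusted p under 0.05, 7 of the 10 were lower and 1 was higher, against 6.81% and 6.0% of all genes. The FPKM of the 2 lines did not overlap in 9 of the 10 genes, 8 of them lower in TCN1_OE and 1 higher, where 21.0% and 21.7% of all genes tested were so placed. Over the 9 genes besides HSPB1 the median log2 fold change was -0.39, beside a median of 0.0016 over all genes tested. These genes were chosen with earlier results of these data known, so their shared direction is no independent support.

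The count of genes called depended on the test. All genes here are those given an adjusted p in the setting named, 11654 with DESeq2, 15113 with limma and 29209 with no filter, so the shares have unlike bases. The DESeq2 Wald test called 5 genes lower, HSPA8, HSPH1, HSP90AA1, DNAJA1 and STIP1, where it called 0.935% of all genes lower, and limma on log2(FPKM + 0.5) called 0 of the 10, with an adjusted p of 0.172 for HSPA8. With limma, 0.0% of all genes were called lower and 0.00662% higher, with each of 3 pseudocounts, and DESeq2 called 0 of the 10 higher, where it called 0.815% of all genes higher. With edgeR and NC replicate 2 left out, HSPA8, HSPH1 and HSP90AA1 were called lower and HSPB1 higher, where 0.65% and 0.785% of all genes were. With TCN1_OE replicate 1 left out, these 3 and DNAJA1 were called lower and HSPB1 higher, where 0.737% and 1.18% of all genes were. Without NC replicate 1 and without TCN1_OE replicate 2, HSPA8 alone was called, where 0.889% and 0.721% of all genes were lower and 0.714% and 0.64% higher. Other settings called more of all genes as well: 0.417% lower and 0.457% higher with library totals in place of TMM factors, and 0.941% lower and 0.685% higher with no filter on low counts; they called 2 and 6 of the 10 genes lower.

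**Figure D2:**
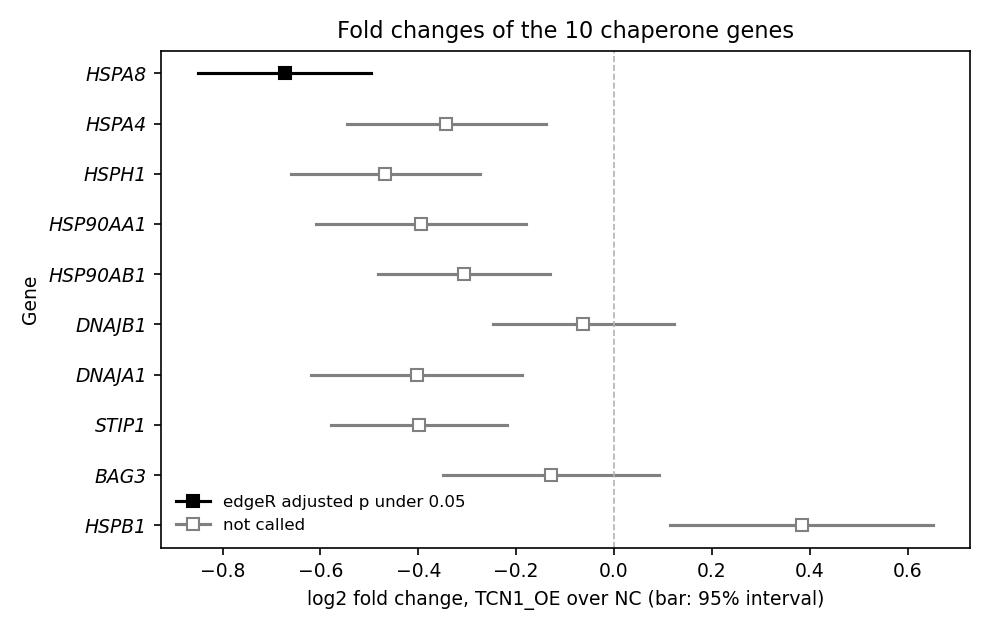
Log2 fold change of each gene, TCN1_OE over NC, on the x axis, with its 95% interval from edgeR as a bar and genes in rows by role. HSPA8, the filled square at -0.67, is the gene called; 7 of the other 9 intervals lie on 1 side of 0, and those of DNAJB1 and BAG3 cross it. The intervals hold for each gene alone and are not adjusted for the number of genes.

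HSPA8 (ENSG00000109971) encodes HSC70, the constitutive HSP70 that folds new proteins and uncoats clathrin vesicles. Its GENCODE 29 coordinates (GRCh38, as for all genes here) are chromosome 11, 123057489 to 123063230, minus strand, and 3.61% of its exonic bases lie under other annotated genes, the small nucleolar RNA genes SNORD14C and SNORD14D. It stood at 327 and 312 FPKM in TCN1_OE, against 519.7 and 496 FPKM in NC. Both TCN1_OE libraries were thus far below both NC libraries, and the replicates of a line lay close together. It fell by 0.67 ± 0.08 on the log2 scale (SE), a level 37.3% lower (edgeR adjusted p 0.0089). HSPA8 ranked 63rd and 69th of all listed genes by FPKM in the TCN1_OE libraries, and 36th and 38th in the NC libraries. In raw counts it took 0.159% and 0.151% of all counts in TCN1_OE, against 0.252% and 0.241% in NC. The suprabasal keratins KRT1 and KRT10 were 1.70-fold and 1.80-fold higher in the same TCN1_OE libraries. In bulk RNA fewer cells with much transcript and less transcript per cell cannot be told apart.

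HSPA8 has many processed pseudogenes, whose near-identical sequence could take reads. The 8 listed pseudogene rows of HSPA8 held 30 and 15 counts in TCN1_OE and 22 and 11 counts in NC, together 0.0615% of the counts given to HSPA8. The HSP90 pseudogene rows held 170 and 125 counts in TCN1_OE and 250 and 110 counts in NC, 0.254% of the HSP90 counts. Reads that mapped to several places may have been dropped in the authors' counting, whose setting for them the labels do not state.

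The HSP110 genes encode large relatives of HSP70 that serve as its nucleotide exchange factors. HSPH1, also called HSP105 (chromosome 13, 31134974 to 31162388, minus strand), stood at 39.2 and 36.1 FPKM in TCN1_OE, against 54.1 and 49.7 FPKM in NC. The lines did not overlap, but the log2 fold change of -0.47 ± 0.09 just missed the threshold, with an edgeR adjusted p of 0.054. HSPA4, also called APG-2 (chromosome 5, 133051962 to 133106449, plus strand), stood at 52.4 and 46.1 FPKM in TCN1_OE, against 64.2 and 60.2 FPKM in NC. HSPA4 thus differed by -0.34 ± 0.09 on the log2 scale (edgeR adjusted p 0.148). The HSPH1 level was 76.6 ± 2.4 per 100 HSPA4 in TCN1_OE and 83.3 ± 1.3 per 100 HSPA4 in NC (SD, n = 2 each, FPKM over FPKM), a difference for which the exact two-sided permutation p of 0.333 is the smallest that 2 libraries against 2 allow.

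The HSP90 genes encode the stress-inducible alpha form and the constitutive beta form of cytosolic HSP90. HSP90AA1 (chromosome 14, 102080738 to 102139699, minus strand) stood at 377 and 330.3 FPKM in TCN1_OE, against 496 and 429.7 FPKM in NC, with 3.75% of its exonic bases under WDR20. HSP90AB1 (chromosome 6, 44246166 to 44253888, plus strand) stood at 603 and 584 FPKM in TCN1_OE, against 753 and 711 FPKM in NC. In neither gene did the lines overlap, and neither passed: the log2 fold changes were -0.39 ± 0.10 and -0.31 ± 0.08, with edgeR adjusted p of 0.122 and 0.139. HSP90AA1 made up 38.4% and 36.1% of the HSP90 FPKM in TCN1_OE, and 39.7% and 37.7% in NC. The shares of the lines overlapped (exact two-sided permutation p = 0.667), and replicate 1 had the higher share in each line.

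J-domain proteins choose the clients of HSP70. DNAJA1, a class A HSP40 (chromosome 9, 33025211 to 33039907, plus strand), stood at 48.4 and 43.0 FPKM in TCN1_OE, against 63.0 and 57.5 FPKM in NC. DNAJA1 thus differed by -0.40 ± 0.10 on the log2 scale (edgeR adjusted p 0.114). DNAJB1, a class B HSP40 that works with HSP70 and HSP110 to take apart aggregates (chromosome 19, 14514770 to 14529770, minus strand), stood at 30.8 and 30.2 FPKM in TCN1_OE, against 31.4 and 32.2 FPKM in NC. The log2 fold change of DNAJB1 was -0.06 ± 0.08, and its 95% interval ran from 0.843-fold to 1.09-fold. That interval lies above the 0.627-fold estimated for HSPA8, but it rests on library spread that may be technical. A direct test of the difference between the fold changes of these genes was not run. The FPKM of DNAJB1 rests on a gene length of 8188 bp in the deposited files, where the exons in GENCODE 29 cover 3672 bp, so its level beside the other genes depends on that length; 6.21% of its exonic bases lie under TECR and MIR639.

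STIP1 (chromosome 11, 64185272 to 64204543, plus strand) was the co-chaperone with the tighter values, at 70.9 and 71.5 FPKM in TCN1_OE against 94.2 and 92.8 FPKM in NC. The spread within each line was far smaller than the distance between lines, yet the log2 fold change of -0.40 ± 0.08 had an edgeR adjusted p of 0.069. BAG3, which couples HSP70 to small heat shock proteins and directs clients to autophagy (chromosome 10, 119651370 to 119677819, plus strand), stood at 71.9 and 78.8 FPKM in TCN1_OE, against 77.4 and 87.0 FPKM in NC. BAG3 was the 1 gene whose lines overlapped, with a log2 fold change of -0.13 ± 0.10, an edgeR adjusted p of 0.645 and a 95% interval from 0.785-fold to 1.07-fold.

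HSPB1 (chromosome 7, 76302544 to 76304295, plus strand) stood at 667 and 840.2 FPKM in TCN1_OE, against 542 and 610.4 FPKM in NC. Both TCN1_OE libraries were above both NC libraries, as for KRT1, KRT10 and the basal keratin KRT5, and as for 21.7% of all genes tested. For HSPB1 replicate 2 was the higher one in each line, and the spread in TCN1_OE was wide. The log2 fold change was 0.38 ± 0.12, or 1.30-fold with a 95% interval from 1.08-fold to 1.57-fold, and the edgeR adjusted p was 0.217. Its value ran from 0.19 without TCN1_OE replicate 2 to 0.55 without TCN1_OE replicate 1, and HSPB1 was called without TCN1_OE replicate 1 (edgeR adjusted p 0.0051) and without NC replicate 2 (0.0297).

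**Figure D3:**
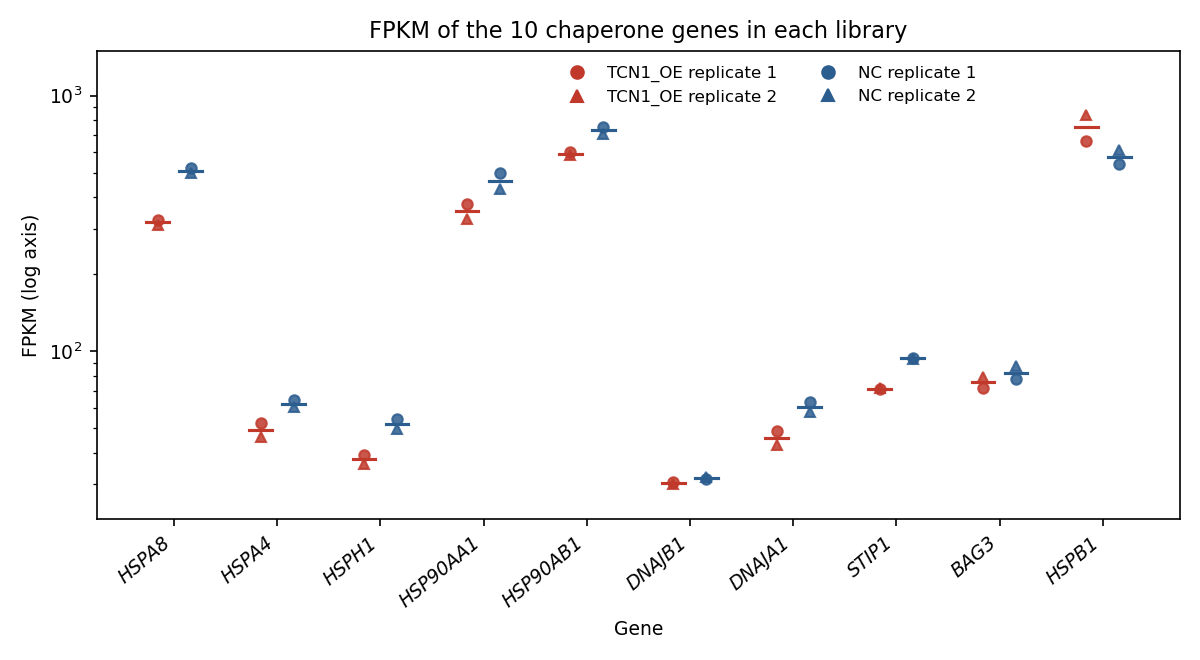
FPKM of the 10 genes on a log axis, with TCN1_OE left of NC for each gene, 1 point per library and a line at the mean of 2. HSPA8 shows the widest gap, 319 against 508 FPKM on average, the DNAJB1 values lie together, and HSPB1 is the gene with TCN1_OE on top.

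A ratio of HSPB1 to HSPA8 within each library does not depend on scaling between libraries. It differed more between the lines than either gene alone, which follows from the opposite signs of their fold changes and is no further result. There were 2.04 and 2.70 HSPB1 FPKM per HSPA8 FPKM in TCN1_OE, against 1.04 and 1.23 in NC. In counts the ratio was 0.792 ± 0.156 in TCN1_OE and 0.380 ± 0.044 in NC (SD, n = 2 each), 2.08 times as high, and the exact two-sided permutation p of 0.333 is the smallest this design allows. The summed FPKM of the 9 other genes was 1621 and 1532 in TCN1_OE, against 2153 and 2017 in NC. HSPB1 thus stood at 0.411 and 0.549 of that sum in TCN1_OE, against 0.252 and 0.303 in NC. BAG3, its partner, stood at 10.8 and 9.38 FPKM per 100 HSPB1 FPKM in TCN1_OE, and at 14.3 in both libraries of NC. HSPB1 is the denominator here and the FPKM of BAG3 itself overlapped between the lines, so this is no separate result on BAG3.

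**Figure D4:**
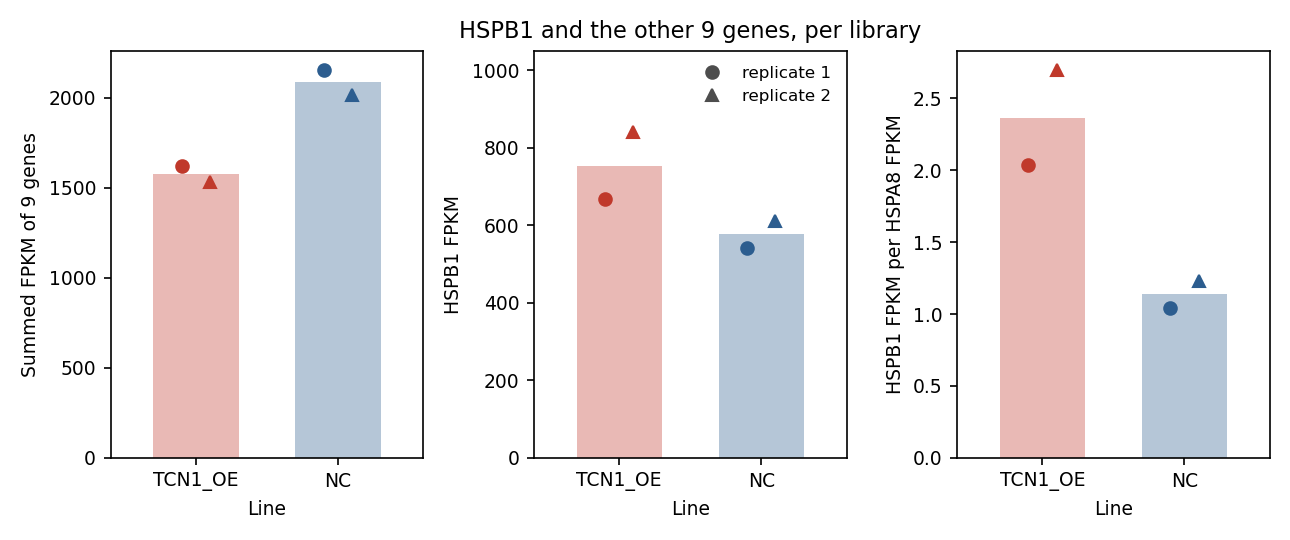
Summed FPKM of the 9 genes besides HSPB1 (left), HSPB1 FPKM (middle) and HSPB1 FPKM per HSPA8 FPKM (right) in each library, with bars at the mean of 2 libraries and TCN1_OE left of NC. The sum averages 1576 against 2085 FPKM, and the ratio averages 2.37 against 1.14.

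Relative to HSPA8, every partner gene was more abundant in TCN1_OE, since HSPA8 had the most negative fold change of the 10. For each 100 HSPA8 FPKM there were 296 ± 4 HSP90 FPKM, both genes summed, in TCN1_OE and 235 ± 8 in NC. DNAJB1 stood at 9.41 and 9.70 per 100 HSPA8 in TCN1_OE, against 6.04 and 6.48 in NC, a ratio of 1.53 between the lines. BAG3 stood at 21.97 and 25.3 per 100 HSPA8 in TCN1_OE, against 14.9 and 17.5 in NC, a ratio of 1.46. For DNAJA1, STIP1, HSP90AA1, HSP90AB1, HSPA4 and HSPH1 the same ratio lay between 1.15 and 1.29. In each of these 8 comparisons the lines did not overlap, and each exact two-sided permutation p was 0.333, the smallest possible. All 8 share HSPA8 as denominator, so they restate its lower level and are not separate results on the partners. The share of all genes whose ratio to HSPA8 did not overlap was not counted.

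The order of levels by FPKM changed in places between the lines. Order between genes depends on the deposited gene lengths, as for DNAJB1 with 8188 bp against 3672 exonic bp in GENCODE 29. In counts HSPB1 was below HSPA8 in every library, at 0.682 and 0.903 per HSPA8 count in TCN1_OE and 0.349 and 0.412 in NC. In TCN1_OE the order of means was HSPB1, HSP90AB1, HSP90AA1, HSPA8, BAG3, STIP1, HSPA4, DNAJA1, HSPH1 and DNAJB1. In NC it was HSP90AB1, HSPB1, HSPA8, HSP90AA1, STIP1, BAG3, HSPA4, DNAJA1, HSPH1 and DNAJB1. HSPB1 was thus above HSP90AB1 in both TCN1_OE libraries and below it in both NC libraries, and the neighbours HSP90AA1 with HSPA8 and BAG3 with STIP1 also stood in opposite order in the 2 lines, in each library. HSPA4 was above DNAJA1 in each of the 4 libraries, though within a line the ranges of these 2 genes overlapped. Together the 10 genes took 0.789% and 0.774% of all counts in TCN1_OE, against 1.00% and 0.951% in NC.

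Beyond the 10 genes, 66 further genes of the cytosolic system were listed by role; 60 of them were in the files and 50 passed the filter on low counts. With edgeR, 0 of the 50 were called in either direction, where 0.212% of all genes were called lower and 0.285% higher. At an unadjusted p under 0.05 there were 9 of the 50 lower and 1 higher, against 6.81% and 6.0% of all genes. The median log2 fold change of the 50 was -0.10, and 33 values were negative and 17 positive, where 7505 of all 15113 genes were negative. The edgeR values of the genes with the smallest p in each group follow.

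Of 18 HSP90 co-chaperone genes tested, 13 were negative and 5 positive, with a median log2 fold change of -0.12. FKBP4, the immunophilin FKBP52 of steroid receptor complexes, stood at 17.9 and 17.6 FPKM in TCN1_OE against 23.6 and 23.3 FPKM in NC. FKBP4 differed by -0.41 ± 0.09 on the log2 scale (edgeR adjusted p 0.092), and 11.4% of its exonic bases lie under other annotated genes. NUDC, a client-loading co-chaperone, stood at -0.31 ± 0.09, TOMM34, which binds HSP70 and HSP90 on the way to mitochondria, at -0.30 ± 0.10, and AHSA1, the activator of the HSP90 ATPase, at -0.30 ± 0.10 on the log2 scale. None of these 4, which were picked for the smallest p, passed. The FPKM of the lines did not overlap in 6 of the 18 genes, all lower in TCN1_OE, where 21.0% of all genes tested were so placed.

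Other cytosolic J-domain genes went both ways, 10 of 14 tested being negative with a median of -0.12. DNAJB2, a J-domain protein that passes clients to the proteasome, stood at 15.7 and 19.4 FPKM in TCN1_OE against 13.0 and 13.9 FPKM in NC, a log2 fold change of 0.38 ± 0.12 that did not pass, with an edgeR adjusted p of 0.226. It shared with HSPB1 the positive sign and the higher level in replicate 2. DNAJA4 stood at -0.32 ± 0.12, the ribosome-associated DNAJC2 at -0.32 ± 0.12 and the clathrin uncoating factor DNAJC6, near 1 FPKM, at -0.48 ± 0.23 on the log2 scale.

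Of the other cytosolic HSP70 and HSP110 genes, 5 of the 8 listed could be tested and all 5 were negative, with a median of -0.30. HSPA14, a ribosome-associated HSP70, stood at -0.38 ± 0.12 (17.4% of its exonic bases lie under other annotated genes), and the HSP110 gene HSPA4L at -0.30 ± 0.15. The distant relatives HSPA12A and HSPA12B, under 1 FPKM, stood at -0.10 ± 0.20 and -0.45 ± 0.53, and HSPA12A turned positive without NC replicate 2 (0.030), as HSPA12B did without TCN1_OE replicate 2 (0.017). The stress-inducible HSPA1A held 1 and 4 counts in TCN1_OE and 2 and 1 counts in NC, and its near-identical neighbour HSPA1B held 7 and 8 counts in TCN1_OE and 12 and 4 counts in NC. Neither can be read as absent, because both lie in the major histocompatibility complex, where 2 of 76 listed protein-coding genes reached a mean of 1 FPKM, against 62.1% of the 15826 listed genome-wide. BAG6 lies there too and held 1 and 4 counts in TCN1_OE and 9 and 1 counts in NC.

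Among genes of HSP70 nucleotide exchange and client binding, 5 of 7 tested were negative, with a median of -0.09. The exchange factor BAG2 stood at -0.38 ± 0.19 (44.2% of its exonic bases lie under RAB23 and ZNF451-AS1), the exchange factor HSPBP1 at -0.23 ± 0.15, the HSP70-interacting protein ST13 at -0.09 ± 0.09 and the exchange factor BAG1 at 0.15 ± 0.09 on the log2 scale, and none passed. Of the other small heat shock genes, 6 of 10 were listed and 2 tested: HSPB8, which works with BAG3, stood at 2.21 and 1.55 FPKM in TCN1_OE against 1.45 and 1.40 FPKM in NC, and HSPB3 at 2.40 and 1.597 FPKM in TCN1_OE against 1.40 and 0.889 FPKM in NC. Their log2 fold changes of 0.39 ± 0.24 and 0.75 ± 0.48 did not pass, and HSPB1 was the 1 listed small heat shock gene above 3 FPKM. HSF1 was listed with 1 and 0 counts in TCN1_OE and 1 and 0 counts in NC, a listing that cannot be read as absence of a factor that most cells express. HSF2 stood at 6.04 and 5.43 FPKM in TCN1_OE and 6.09 and 5.31 FPKM in NC. HSF4 stood at 0.45 ± 0.21 on the log2 scale (another gene covers 31.4% of its exonic bases), the HSF-binding factor HSBP1 at 0.16 ± 0.16 and HSBP1L1 at 0.06 ± 0.13, and none of the 4 genes tested passed.

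**Figure D5:**
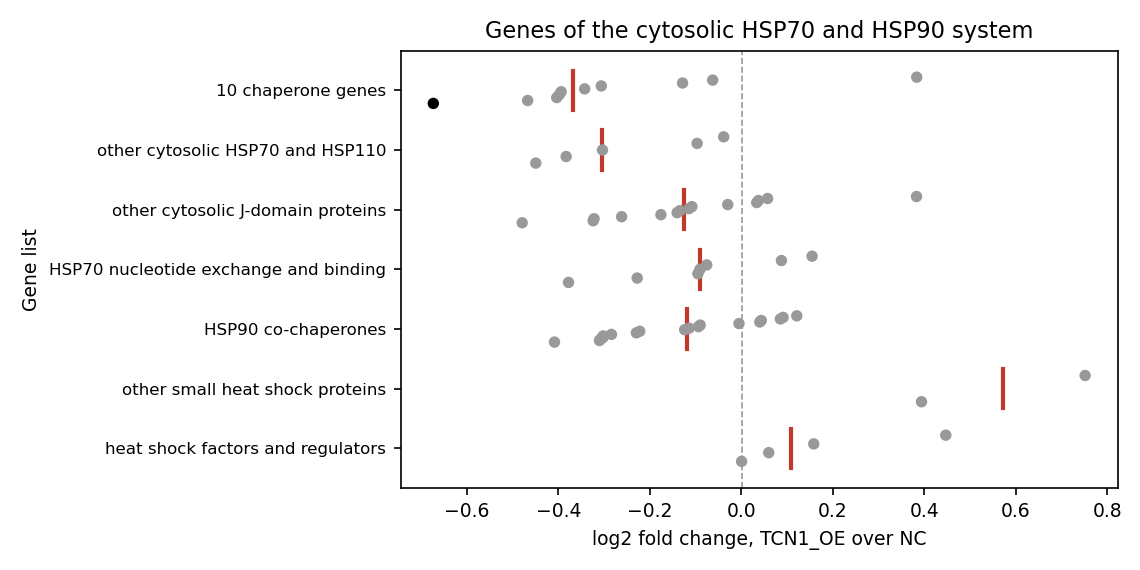
Log2 fold change, TCN1_OE over NC, of each tested gene by role, with the red line at the median of a group and the dashed line at the median of all genes (0.0016). The 10 chaperone genes have a median of -0.37 with HSPB1 alone on the right, and the black point is HSPA8, the gene called.

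The genes whose pattern over the 4 libraries was most like that of HSPA8 were found among the 11279 tested genes that averaged 1 FPKM or more, by the Euclidean distance between log2 CPM values centred on each gene's mean. They were NEFL at a distance of 0.016, ODC1 at 0.072, SKA3 at 0.072, THBS1 at 0.084 and CDCA7 at 0.093. NEFL stood at 14.6 and 14.02 FPKM in TCN1_OE against 23.5 and 22.4 FPKM in NC. For HSPB1, SLC16A13 and BBLN were among the nearest 5, each at a distance of 0.029. BBLN stood at 25.4 and 32.7 FPKM in TCN1_OE against 20.5 and 23.2 FPKM in NC. That its replicate 2 was the higher one in each line follows from its being picked for likeness to HSPB1. Over 4 libraries such likeness is a description of these libraries.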

How the data were processed

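PolyA RNA of 4 HaCaT libraries, 2 TCN1_OE and 2 NC, was sequenced on an Illumina instrument from NEBNext Ultra libraries, a kit that does not mark strand, per the labels' protocols. HISAT2, HTSeq 0.13.5 and GRCh38 are named in the submitters' processing notes; the labels do not state the annotation release or the strand and multi-mapping settings. For each of 29209 genes the authors deposited an unnormalized read count and an FPKM value, per the file headers; all listed genes have at least 1 count in some library. Replicates differed by more than counting noise, with a chi-square per degree of freedom of 7.65 within TCN1_OE and 7.55 within NC.

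Counts were tested with edgeR 4.0.16 in R 4.3.3 (TMM factors, filterByExpr with a minimum count of 10, robust quasi-likelihood fit, group as the only term, 15113 genes, Benjamini-Hochberg threshold 0.05). A standard error is the log2 fold change over the square root of F; 95% intervals use the moderated t distribution. The edgeR step was tested on simulated data, and the outcome is not used here to judge genes that did not pass. Alternatives were DESeq2 1.42.0, limma 3.58.1 on log2(FPKM + 0.5), other scalings, filters, left-out libraries and a replicate term. Coordinates and exon overlaps are from GENCODE 29 (GRCh38), which matched 92.8% of the identifiers. The members and lists were chosen with earlier results of these data known. Named were all 10 members, TCN1, up to 4 genes with the smallest p per list (every called gene, had there been any) and genes among the 5 nearest patterns, of which some are not reported here; the other listed genes named were chosen after their values were seen.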

Additional observations from a re-analysis of the deposited data

How the results depend on the processing

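HSPA8 kept its negative direction under all 14 alternatives, with log2 fold changes from -0.70 to -0.65, and was not called by limma on log2(FPKM + 0.5), + 0.1 or + 1 (-0.67 each, adjusted p 0.172, 0.161 and 0.182). The other 8 genes besides HSPB1 also stayed negative throughout. HSPB1 stayed positive throughout and was called without a filter on low counts (0.37, edgeR adjusted p 0.0227). Leaving out 1 library gave HSPB1 values from 0.19 to 0.55. The members called lower numbered 2 with library totals only, 6 without a filter, 5 with DESeq2, 0 with each limma setting and 1 to 4 with 1 library left out; those called higher numbered 1 without a filter and 0 to 1 with 1 library left out. Over all genes, 43 higher and 32 lower became 78 and 53 with upper quartile factors, 69 and 63 with library totals, 200 and 275 without a filter, 95 and 109 with DESeq2, 1 and 0 with each limma setting, and 104 to 188 higher and 106 to 142 lower with 1 library left out, where the lone library is assumed to vary like the other line; with genes of at least 1 FPKM, 14 were lower. No scaling moved the median of all genes by over 0.1. The cause of these differences was not tested.

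The replicate numbers pair libraries by number only, and across 15113 genes the replicate differences of the 2 lines correlated at 0.150, a description of 4 libraries. With a replicate block edgeR called 1216 of the 15113 genes higher and 1655 lower. In that fit 8 members were lower and 1, HSPB1, higher (0.37, edgeR adjusted p 4.7e-07), and DNAJB1 was not called. The labels do not pair these libraries, so the calls of that fit are not relied on here. The TCN1_OE minus NC difference in HSPB1 per HSPA8 counts, 0.412, ran from 0.301 to 0.522 with 1 library left out, and that in the HSP90AA1 share, -1.42 percentage points, from -2.59 to -0.26.

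Of the list genes named in the text, the ones for which this was run, 5 changed sign with 1 library left out, and none of the 5 was called with all libraries: HSPA12B ran from -1.22 to 0.017, HSPA12A from -0.229 to 0.0295, HSBP1 from -0.0244 to 0.387, HSBP1L1 from -0.0365 to 0.142 and HSF2 from -0.0853 to 0.0983; HSF2 was also negative without a filter (-0.0169) and with DESeq2 (-0.000614). HSPA1A, HSPA1B and HSF1 hold a few counts each and were not tested.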

Other observations

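Some of the 10 genes also differed between the replicates of a line, in the same direction in both lines. The share of all genes that did so was not counted. HSPB1 was higher in replicate 2 than in replicate 1 by 0.36 on the log2 CPM scale in TCN1_OE and by 0.19 in NC, and BAG3, its partner, by 0.15 in TCN1_OE and 0.19 in NC. HSP90AA1 lay the other way, at -0.17 in TCN1_OE and -0.19 in NC, as did DNAJA1 at -0.15 and -0.11, HSPH1 at -0.10 and -0.11 and HSPA4 at -0.16 and -0.07. STIP1, at 0.035 in TCN1_OE and -0.0038 in NC, and DNAJB1, at -0.0040 and 0.052, had opposite signs in the 2 lines. HSPA8 differed little between replicates, at -0.05 in both lines, against a difference of -0.67 between the lines. HSP90AA1 differed between replicates by less than its difference between lines, -0.39. The HSPB1 replicate difference in TCN1_OE, 0.36, was close to its difference between the lines, 0.38. Both replicate differences of BAG3 were larger in size than its difference between the lines, -0.13. The labels do not say what a replicate number marks.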
